A study of Drosophila melanogaster with 10 samples.

Results

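The genes described here encode the proteins of the cytoplasmic ribosome of Drosophila melanogaster. They were taken as all genes whose symbol begins with RpL or RpS followed by a digit or by P, together with sta (stubarista), provided that at least 10 counts were summed over the 10 libraries. The gene once named sop is listed under its present symbol RpS2. The rule was met by 85 of the 17402 genes in the count table, of which 35 carry a name of the small (40S) subunit and 50 a name of the large (60S) subunit. A further 3 symbols fell below the count minimum, namely RpL7-like with 0 counts, RpS28-like with 5 counts and RpS28a with 4 counts. The exons of RpL7-like overlap those of CG34164 on the same strand along 1771 bases, so its 0 was not read as a level. RpS10b, RpL19, RpL27A, RpL31 and RpS12 were not analysed here, since their annotated identifiers were not matched to a row of the table. The annotation (dm6) places 16 of the 85 genes on 2L, 19 on 2R, 13 on 3L, 22 on 3R, 1 on chromosome 4 and 14 on X.

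RNA of whole female larvae of the third instar was sequenced from 5 strains with 2 libraries each. The aim was to separate effects of losing Argonaute2 (AGO2), the effector protein of RNA interference, from effects of losing its catalytic activity. The paper names both polyadenylated RNA and RNA depleted of ribosomal RNA as library input. The labels used here do not say which of them each library held. The strains were labelled 51B and 51B/+ (a null allele of AGO2, homozygous and heterozygous as the labels are written), V966M and V966M/+ (an allele with a point mutation that inactivates slicing, likewise) and w, the control strain. Sample titles do not match these labels, since they give the allele name doubled where the strain label reads 51B/+ or V966M/+, and single where it reads 51B or V966M. AGO2 itself averaged 102 ± 3.97 CPM (depth-scaled counts) in libraries labelled 51B, 3.35 ± 0.715 CPM in those labelled 51B/+, 199 ± 51.6 CPM in V966M, 221 ± 38.6 CPM in V966M/+ and 191 ± 54.1 CPM in w (SD, n = 2 each), which goes against the labels of the 51B pair. Strain names below are the strain labels as deposited, and if the titles are read instead, null homozygotes are compared with catalytic homozygotes in 51B/+ against V966M/+. Every strain has a replicate 4 and a replicate 3, and values are given in that order. Libraries held 22337432 to 60886803 counts, and in each of the 5 strains replicate 3 was sequenced more deeply. No source says that the libraries of a strain came from separate groups of larvae beyond calling them biological replicates, so p-values measure the spread between these samples only.

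Each ribosome carries one copy of nearly every ribosomal protein, so their genes are transcribed together and at very high levels in growing tissue such as that of a larva. Many of them cause the Minute phenotype in flies when 1 of the 2 copies is lost, with slow development and thin bristles. Transcription of these genes starts at a pyrimidine-rich initiator and is raised by growth signals through Tor and Myc. Several ribosomal proteins in Drosophila also have a second gene, and some of these copies are used mostly in the germline.

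Most ribosomal protein genes were strongly expressed, 79 of the 85 with a mean of 10 CPM or more, and 6 were close to silent. Levels of different genes were compared as TPM, in which counts are divided by exon length and scaled to a common sum in each library. The median of the mean TPM was 1681 over the 35 genes with a 40S name and 1567 over the 50 with a 60S name, and the quartiles over all 85 genes lay at 1013 and 2216 TPM. RpL41, which encodes a very short basic peptide of the large subunit, was the highest with a mean of 13956 ± 3402 TPM (SD, n = 10 libraries). RpLP2, an acidic protein of the stalk that recruits elongation factors, followed with 8086 ± 1993 TPM, and RpL23 with 7043 ± 2394 TPM. The ranges of RpLP2 (5439 to 11952 TPM) and RpL23 (4134 to 10569 TPM) overlapped almost wholly, whereas RpL41 ran from 10272 to 20326 TPM. At the other end, RpL10Aa, RpL22-like and RpL37-2 averaged 0.0688, 0.297 and 0.407 TPM, and RpS10a, RpS19b and RpS5b averaged 0.616, 1.43 and 3.12 TPM. All 6 are second copies of a gene whose partner is strongly expressed, or, for RpS10a, whose partner RpS10b was not analysed here.

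**Figure D1:**
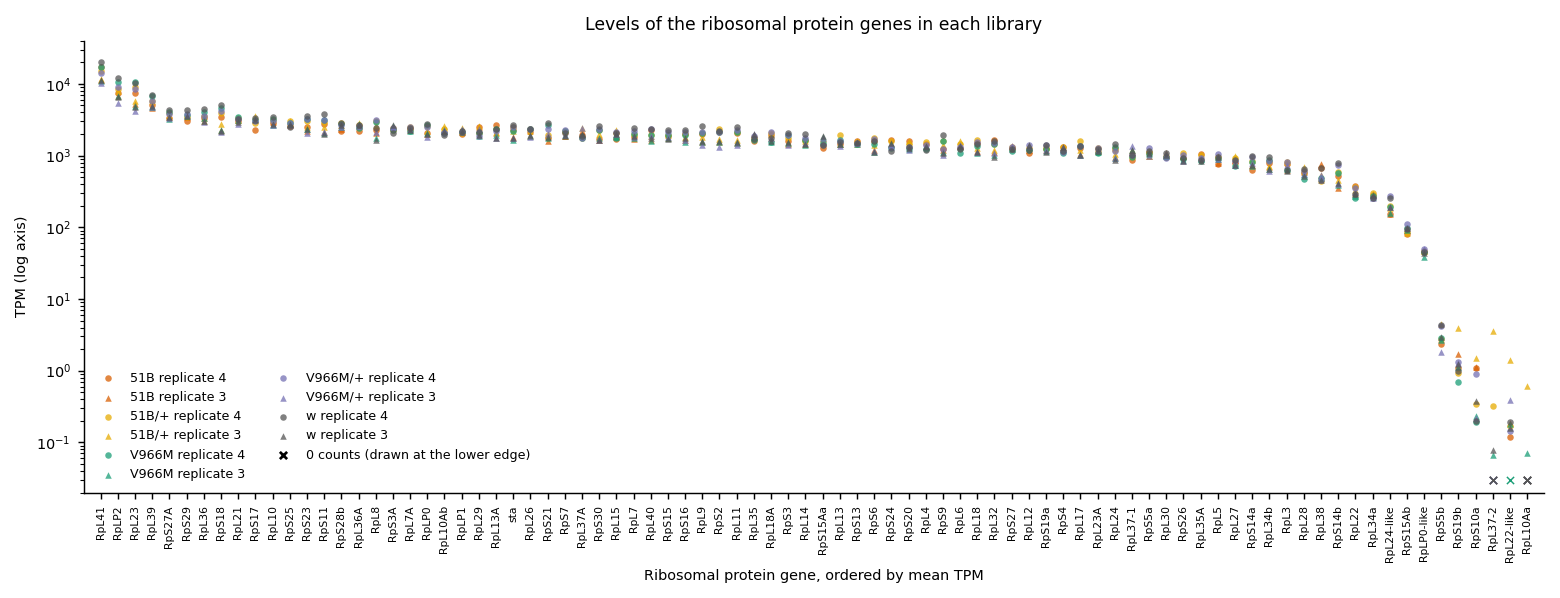
TPM of 84 of the 85 ribosomal protein genes on a log axis, ordered by mean; circles are replicate 4 and triangles replicate 3 of each strain, and crosses at the lower edge are libraries with 0 counts. All but 6 lie above a mean of 10 CPM in a continuous band, and the 6 paralogs lie far below it, with labelled 51B/+ replicate 3 the highest point for all 6 on this TPM scale.

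Among the 79 genes that averaged 10 CPM or more, the 90th percentile of TPM was 4.39 to 6.15 times the 10th percentile within a library. Over all 85 genes this ratio was 12.6 to 16.7. Levels thus spread several-fold in every library, and both the selection of RNA and the assigned exon length enter TPM. Exons of 7 of the 85 genes overlap another counted gene on the same strand, often a small nucleolar RNA, and those of 23 overlap a gene on the opposite strand, which unstranded counting cannot separate.

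As a share of all counts in a library, the ribosomal protein genes took 8.34% and 7.18% in the 51B libraries (replicate 4, then replicate 3). They took 9.70% and 8.64% in 51B/+, 10.2% and 7.29% in V966M, 9.71% and 7.08% in V966M/+, and 11.1% and 7.52% in w. The share was higher in replicate 4 in all 5 strains, and of the 5 strains only 51B and 51B/+ did not overlap with each other. By strain the mean share was 7.76% ± 0.821 in 51B, 9.17% ± 0.749 in 51B/+, 8.76% ± 2.08 in V966M, 8.39% ± 1.86 in V966M/+ and 9.32% ± 2.55 in w (SD, n = 2 each), so the distances between strains were within the spread of w. Genes of the mitochondrial genome took 5.57% to 16.5% of the counts, with the highest share in 51B replicate 3, and this moves every other share. The counts of 60S over 40S genes stood in a ratio of 1.36 to 1.43 in all 10 libraries, so the totals of the 2 subunits kept nearly the same proportion.

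Much of the variation between libraries was shared by the genes. On a scale of log2(CPM + 0.5) relative to each gene's mean, with CPM scaled by TMM (a factor per library that sets the bulk of genes equal), the median of the 79 genes was 0.11 and -0.01 in 51B, 0.15 and 0.07 in 51B/+, 0.32 and -0.17 in V966M, -0.15 and -0.41 in V966M/+, and 0.34 and -0.27 in w. The w pair, nominally 1 genotype, thus spanned most of the range. The highest of the 10 libraries was w replicate 4 for 36 of the 79 genes and V966M replicate 4 for 24, and the lowest was V966M/+ replicate 3 for 61. The median SD of a gene over the 10 libraries was 0.28 on this log2 scale. It fell to 0.15 once the median of the 79 genes was subtracted from each library. For 61 of the 79 genes the SD within strains was larger than the SD of the strain means, with medians of 0.26 and 0.19. A mean of 2 libraries varies less than 1 library. A majority in this order is therefore likely even without a strain difference, and it does not measure one.

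**Figure D2:**
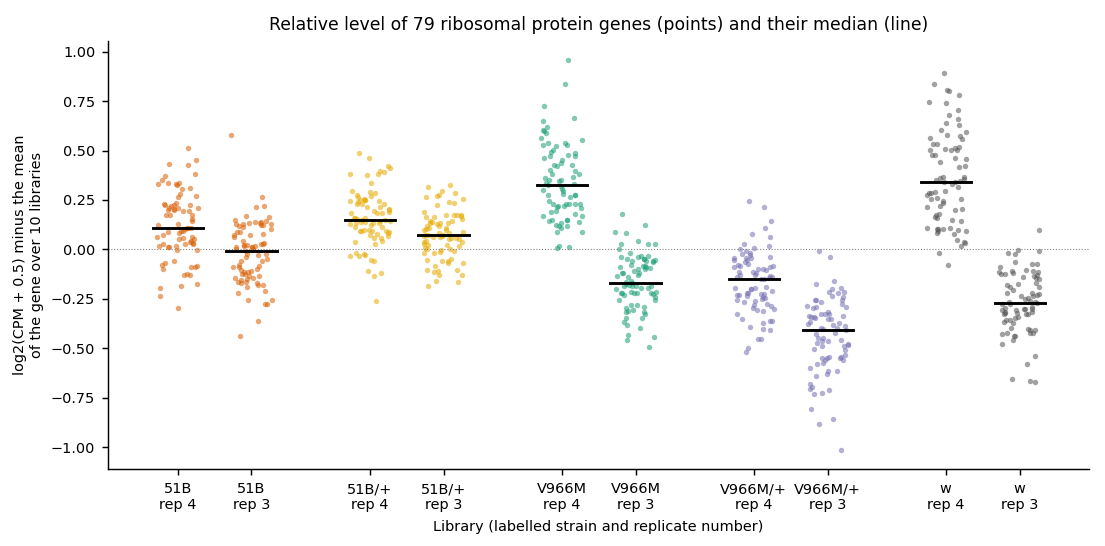
Level of each of 79 ribosomal protein genes in each library, as log2(CPM + 0.5) minus the mean of that gene over the 10 libraries (points), with the library median (line). Medians run from -0.41 in V966M/+ replicate 3 to 0.34 in w replicate 4, and replicate 4 is above replicate 3 in every strain.

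The most variable genes were RpL23, RpS18 (a protein of the head of the small subunit) and RpLP2, with SDs of 0.64, 0.61 and 0.49 on the log2 scale. The least variable were RpL12, RpL35 and RpS3A, with SDs of 0.12, 0.13 and 0.16. RpLP2 had 3000.0 and 2646 CPM in 51B, 3235 and 3086 CPM in 51B/+, 4863 and 2522 CPM in V966M, 2765 and 1624 CPM in V966M/+, and 5127 and 2174 CPM in w. Its w libraries stood at the highest value and at the second lowest of the 10, and the 51B and 51B/+ libraries lay between them. RpL12, the neighbour of the stalk base on the large subunit, had 851 and 890 CPM in 51B, 957 and 930 CPM in 51B/+, 1053 and 924 CPM in V966M, 826 and 788 CPM in V966M/+, and 970 and 892 CPM in w. Here the V966M/+ libraries were the 2 lowest of the 10, followed by the 51B libraries, and the other strains overlapped.

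No ribosomal protein gene was called between strains by the edgeR quasi-likelihood test in the fit on strain alone. With the replicate number also in the fit some were called, and these are given in the closing section beside the share of all genes. Across the 4 comparisons with w, edgeR (Benjamini-Hochberg adjusted p under 0.1 over 13551 genes) called 0 of the 85 genes in 51B, where it called 0.738% of all genes tested, 0 in 51B/+ (1.79% of all genes), 0 in V966M (0.125%) and 0 in V966M/+ (1.14%). At an unadjusted p under 0.05 the numbers were 0, 1, 0 and 1 of 85, where 10.8%, 11.7%, 4.43% and 11.2% of all genes were under it. DESeq2 also called 0 in each of these 4 comparisons, and the edgeR exact test called RpS10a alone, in 51B. The median log2 fold change of the 85 genes was -0.03 in 51B against w (all genes -0.02), 0.04 in 51B/+ (all genes 0.02) and 0.03 in V966M (all genes -0.02). In these comparisons 37, 50 and 56 of the 85 genes were above 0, against 46.2%, 52.3% and 46.1% of all genes, and in V966M, where most were above 0, the quartiles lay at -0.04 and 0.09. Library for library the sign of the median depended on the replicate number, with -0.23 between the replicate 4 libraries and 0.22 between the replicate 3 libraries for 51B against w, and -0.18 and 0.35 for 51B/+ against w.

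Among the comparisons with w, the median lay furthest from 0 in V966M/+, again with no gene past the edgeR threshold. There the log2 fold change was -0.37 at the median (all genes 0.00), and 83 of the 85 genes were below 0. The value was -0.50 between the replicate 4 libraries and -0.18 between the replicate 3 libraries. Both V966M/+ libraries were below both w libraries for 25 of the 85 genes, where 21.2% of all genes tested showed the same order. Among the 1414 genes that averaged 100 CPM or more, which include 76 of the 85, the median was -0.16 and the order was seen in 35.3%, against 24 of those 76, so by this count the ribosomal protein genes did not stand apart from other strongly expressed genes. The 3 genes with the largest decrease among those with at least 1 CPM were RpS9 (-0.79, SE 0.40), RpL41 (-0.76, SE 0.48) and RpLP2 (-0.73, SE 0.47), with edgeR adjusted p of 0.519, 0.649 and 0.661. RpL3, a protein close to the peptidyl transferase centre, and RpL8 stood at -0.02 each.

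The same displacement appeared where V966M/+ was the second strain. Against V966M/+, all 85 genes of 51B/+ had a log2 fold change above 0, with a median of 0.43 (all genes 0.03). edgeR called 0 of the 85, beside 6.07% of all genes tested, and 7 of 85 had an unadjusted p under 0.05, where 19.0% of all genes did. Both 51B/+ libraries were above both V966M/+ libraries for 66 of the 85 genes (26.0% of all genes tested), and for 64 of the 76 with at least 100 CPM (42.9% of all genes at that level). The median was 0.32 between the replicate 4 libraries and 0.53 between the replicate 3 libraries. In V966M against V966M/+ the median was 0.40 (all genes -0.02), 82 of 85 genes were above 0, and edgeR called 0 of the 85 (6.70% of all genes tested), with 2 of 85 at an unadjusted p under 0.05 (19.0% of all genes). Both V966M libraries were above both V966M/+ libraries for 40 of the 85 genes (24.8% of all genes tested). These 40 were all among the 76 genes with at least 100 CPM, and 44.3% of all genes at that level showed the order. The median of the genes at that level was 0.16 in 51B/+ and 0.23 in V966M against V966M/+. For V966M against V966M/+ the member medians were 0.50 and 0.27 within the 2 replicate numbers. These comparisons and that with w share the V966M/+ libraries.

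Calls in these comparisons depended on the test, and on whether the replicate number was in the fit (closing section). DESeq2 called 10 of the 85 genes higher in 51B/+ than in V966M/+ (RpL4, RpL6, RpL10Ab, RpL27, RpL34a, RpS3A, RpS4, RpS20, RpS24 and RpS25), and 5 higher in V966M than in V966M/+ (RpL10Ab, RpL34a, RpS3A, RpS24 and RpS25). Of all genes with an adjusted p, DESeq2 called 8.90% higher in the first comparison and 11.9% in the second, so 10 of 85 was close to the share of all genes and 5 of 85 was below it. RpL34a, 1 of 2 genes for a protein of the large subunit, had 120 and 115 CPM in 51B/+, against 80.5 and 78.5 CPM in V966M/+. Its V966M libraries had 128 and 100 CPM. The edgeR log2 fold change of RpL34a was 0.56 (SE 0.18, adjusted p = 0.137) in 51B/+ against V966M/+ and 0.52 (SE 0.18, adjusted p = 0.153) in V966M against V966M/+, while DESeq2 gave adjusted p of 0.0280 and 0.0455. RpS24 had 668 and 588 CPM in 51B/+, 630 and 561 CPM in V966M, and 434 and 418 CPM in V966M/+, with no overlap between the strains and V966M/+. The lower level was relative to other genes: the TMM factors of V966M/+ were the 2 highest of the 10 (1.26 and 1.15, against 0.868 to 1.07 elsewhere), and with library totals alone the median of all genes moved to -0.39 in V966M against V966M/+ and to -0.26 in 51B/+ against V966M/+. The ribosomal protein genes stood 0.40 and 0.39 above all genes on that scale, against 0.42 and 0.40 with TMM. In V966M/+ against w they stood 0.33 below all genes on that scale, against 0.37 with TMM. In bulk RNA of a whole larva, a lower share of cells that make much ribosomal protein mRNA cannot be told apart from less of that mRNA per cell.

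**Figure D3:**
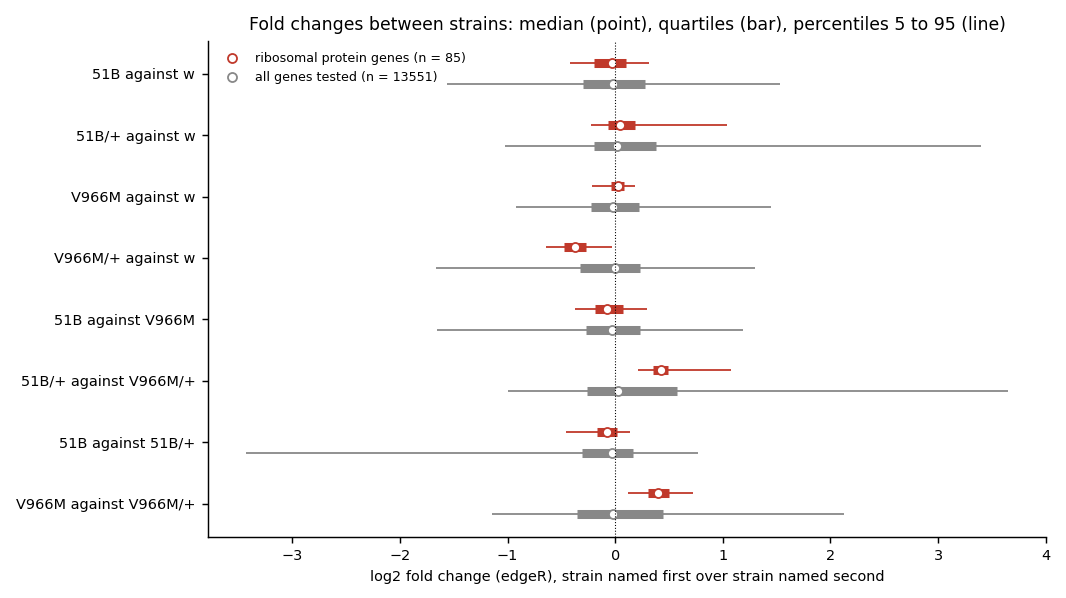
log2 fold changes (edgeR, horizontal axis) of the 85 ribosomal protein genes and of the 13551 genes tested in 8 comparisons between strains, the strain named first over the strain named second; points are medians, bars quartiles and lines the 5th to 95th percentiles. The members' bars lie apart from 0 only where V966M/+ is 1 of the 2 strains, at medians of -0.37, 0.43 and 0.40.

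The remaining pairs had medians near those of all genes. In 51B against V966M the median was -0.08 (all genes -0.03) and 0 of the 85 genes were called by edgeR, beside 0.118% of all genes, with 1 of 85 at an unadjusted p under 0.05 (5.51% of all genes). The edgeR exact test called RpS10a there and DESeq2 called 0. In 51B against 51B/+ the median was -0.07 (all genes -0.03) and 0 of the 85 were called by edgeR (0.0812% of all genes) or DESeq2, with 1 of 85 at an unadjusted p under 0.05 (5.96% of all genes). RpL38 had the largest value there among genes of at least 1 CPM, 0.61 (SE 0.30, edgeR adjusted p = 0.791), with 458 and 507 CPM in 51B, against 283 and 349 CPM in 51B/+. The difference between the 2 labelled zygosities was also tested between alleles, as (51B minus 51B/+) minus (V966M minus V966M/+). edgeR called 0 of the 85 genes in this test (0.0886% of all genes tested), 0 had an unadjusted p under 0.05 (8.42% of all genes), and DESeq2 called 0. The median of this difference was -0.47 over the 85 genes (all genes -0.06), with 83 of 85 below 0, against 54.8% of all genes. It includes V966M against V966M/+, so it is not separate from the values of that comparison given above.

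RpL32, also known as rp49, was the gene to which the study normalized its qRT-PCR. It had 897 and 580 CPM in 51B, 738 and 605 CPM in 51B/+, 874 and 487 CPM in V966M, 600.0 and 431 CPM in V966M/+, and 893 and 420 CPM in w. The 2 w libraries differed more than the means of any 2 strains. Against w its log2 fold change was 0.17 in 51B, 0.03 in 51B/+, 0.05 in V966M, with -0.35 in V966M/+, each with an SE of 0.42 and edgeR adjusted p between 0.858 and 1.

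More ribosomal protein genes were called between replicate numbers than between strains. The replicate comparison holds 5 libraries on each side and a strain comparison 2, so the numbers called do not compare the sizes of the differences. In a fit with strain and replicate number, added after the data were seen, edgeR called 23 of the 85 genes, beside 9.73% of all genes tested. All 23 were higher in replicate 4, a direction in which 4.90% of all genes were called. The median log2 fold change of replicate 4 over replicate 3 was 0.27 (all genes -0.06). In all 5 strains replicate 4 was the higher for 47 of the 85 genes, against 10.4% of all genes tested, and for 46 of the 76 with at least 100 CPM, against 18.2% of all genes at that level. Depth and replicate number cannot be told apart, since replicate 3 was the deeper library throughout, and no label says what the numbers mark. By strain the median difference was 0.09 in 51B, 0.07 in 51B/+, 0.42 in V966M, 0.26 in V966M/+ and 0.57 in w. The number of calls changed with the libraries kept, and edgeR called 0 of the 85 without w replicate 4, 2 without w replicate 3, 1 without V966M replicate 3 and 2 without V966M replicate 4. Without either 51B library or either V966M/+ library it called 11 or 12, and without either 51B/+ library 25 or 26. The share of all genes called in these fits is not given, so the change cannot be read as particular to these genes. Their median log2 fold change ran from 0.20 to 0.33 over these fits.

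Large differences were seen in RpL23, RpS18, RpS14b and RpL41. RpL23 had 2688 CPM in replicate 4 and 1845 CPM in replicate 3 of 51B, 3137 and 1994 CPM in 51B/+, 4346 and 1630 CPM in V966M, 2335 and 1107 CPM in V966M/+, and 3917 and 1419 CPM in w. Its log2 fold change was 1.03 (SE 0.17, edgeR adjusted p = 0.0293), and the lowest replicate 4 library was above the highest replicate 3 library. RpS18 had 1428 and 920 CPM in 51B, 1553 and 1082 CPM in 51B/+, 2118 and 841 CPM in V966M, 1307 and 642 CPM in V966M/+, and 2194 and 745 CPM in w, for 1.01 (SE 0.17, edgeR adjusted p = 0.0294). As with RpL23, no replicate 3 library of RpS18 reached any replicate 4 library. RpL41 had 3681 and 2375 CPM in 51B, 3067 and 2368 CPM in 51B/+, 4226 and 2117 CPM in V966M, 2298 and 1625 CPM in V966M/+, and 4619 and 2041 CPM in w, for 0.74 (SE 0.15, edgeR adjusted p = 0.0421). Here V966M/+ replicate 4 fell within the range of replicate 3.

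Genes of both subunits were among the 23. They included RpS2, which is known for its part in oogenesis, RpS6, the substrate of S6 kinase, sta, the homologue of the laminin receptor protein RPSA, and RpL40, which is made as a fusion with ubiquitin. RpS2 had 1727 and 1224 CPM in 51B, 1835 and 1295 CPM in 51B/+, 1976 and 1119 CPM in V966M, 1330 and 783 CPM in V966M/+, and 1881 and 1084 CPM in w, for 0.68 (SE 0.12, edgeR adjusted p = 0.0294). sta had 2031 and 1575 CPM in 51B, 2131 and 1873 CPM in 51B/+, 2270 and 1323 CPM in V966M, 1696 and 1181 CPM in V966M/+, and 2566 and 1297 CPM in w, for 0.57 (SE 0.15, edgeR adjusted p = 0.0715). RpL32 was also called, at 0.66 (SE 0.14, edgeR adjusted p = 0.0421). RpL37-1 (-0.17, SE 0.12) and RpS15Aa (-0.20, SE 0.12) had values in the other direction, with edgeR adjusted p of 0.413 and 0.331.

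**Figure D4:**
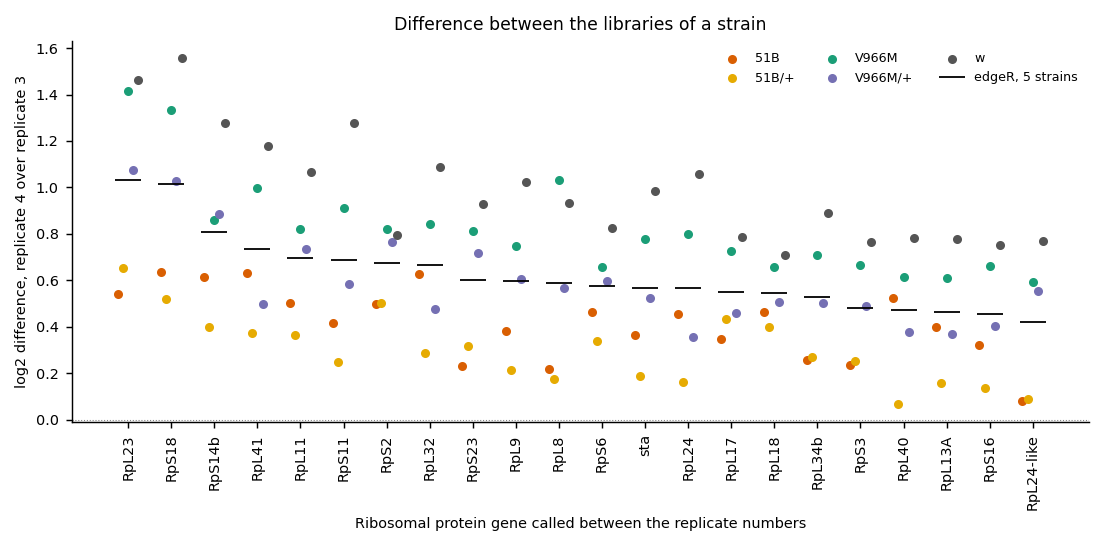
Difference between the 2 libraries of each strain, replicate 4 over replicate 3 on the log2 scale (points, 1 colour per strain), for 22 of the 23 ribosomal protein genes called between replicate numbers; black bars are the edgeR estimate over 5 strains. All points lie above 0, and w or V966M is the highest strain for each gene while 51B or 51B/+ is the lowest.

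Second copies of a ribosomal protein gene took either 1.63% or more of the TPM of their pair in every library or at most 0.445%. RpS14a and RpS14b lie next to each other on X (7933742 to 7934677 and 7934898 to 7935792, dm6) and are nearly identical in their coding part, so reads common to both can be divided between them or lost. By TPM, RpS14b made up 45.7% and 32.3% of the pair in 51B, 41.9% and 34.2% in 51B/+, 41.3% and 35.7% in V966M, 43.6% and 34.1% in V966M/+, and 44.3% and 35.6% in w. Every replicate 4 library was above every replicate 3 library. RpS14b rose in replicate 4 by 0.81 on the log2 scale (SE 0.13, edgeR adjusted p = 0.0289), with 211 and 138 CPM in 51B, 228 and 173 CPM in 51B/+, 260 and 143 CPM in V966M, 221 and 120 CPM in V966M/+, and 335 and 138 CPM in w. Its neighbour RpS14a had 368 and 425 CPM in 51B, 465 and 489 CPM in 51B/+, 543 and 379 CPM in V966M, 420 and 339 CPM in V966M/+, and 620 and 366 CPM in w, without a common direction between the replicate numbers.

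RpL34a moved the other way within its pair. It made up 21.5% to 26.3% of the RpL34a and RpL34b total by TPM in replicate 4 libraries and 28.6% to 30.2% in replicate 3 libraries, without overlap, and RpL34b was called higher in replicate 4 at 0.53 (SE 0.13, edgeR adjusted p = 0.0616). RpL24-like, which in yeast is a ribosome assembly factor rather than a part of the finished ribosome, made up 10.9% to 18.8% of its pair with RpL24. RpL24-like had 81.0 and 76.6 CPM in 51B, 97.7 and 91.8 CPM in 51B/+, 111 and 73.6 CPM in V966M, 106 and 72.4 CPM in V966M/+, and 142 and 83.1 CPM in w. RpS15Ab made up 4.57% to 7.49% of its pair with RpS15Aa and RpLP0-like 1.63% to 2.63% of its pair with RpLP0, the anchor of the stalk. These 3 shares differed less than 2-fold over the 10 libraries.

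Of the 6 paralogs near 0, 5 were highest by TMM-scaled CPM in the same library, labelled 51B/+ replicate 3. All 6 were highest there by TPM. RpL37-2 (48 counts in total) and RpL10Aa (16 in total) met the minimum of 10 counts only through this library. For these genes the highest place was thus partly set by the rule and is not a separate result. RpL37-2 had 2 counts in replicate 4 and 44 counts in replicate 3 of 51B/+, 0 and 1 in V966M, 0 and 1 in w, and 0 in all 51B and V966M/+ libraries. RpL22-like had 3 and 51 counts in 51B/+, against 2 and 5 in 51B, 0 and 8 in V966M, 3 and 11 in V966M/+, and 4 and 6 in w. RpL10Aa had 0 and 14 counts in 51B/+, 0 and 2 in V966M and 0 in the other 6 libraries. A count of 0 allows up to 3 counts, which corresponds to 0.0493 to 0.134 CPM in these libraries, and such limits cover counting error only.

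RpS19b had 9 and 75 counts in 51B/+, against 10 and 25 in 51B, 8 and 27 in V966M, 15 and 19 in V966M/+, and 11 and 25 in w. RpS10a had 3 and 26 counts in 51B/+, 9 and 15 in 51B, 2 and 5 in V966M, 9 and 3 in V966M/+, and 2 and 7 in w. RpS5b had 39 and 123 counts in 51B/+, 30 and 57 in 51B, 47 and 92 in V966M, 66 and 39 in V966M/+, and 70 and 85 in w, and was the 1 paralog of the 6 that was not highest in this library on the TMM-scaled CPM. Together the 6 genes took 2.46 and 7.08 CPM of the library total, without TMM, in 51B/+, against 1.81 to 3.58 CPM in the other 8 libraries. The 7.08 CPM stand for 333 counts, of which 44 were of RpL37-2 and 14 of RpL10Aa. These 2 genes met the count minimum only through that library, so the sum was partly set by the rule. None of the 6 genes passed the edgeR test in 51B/+ against w. RpL37-2, which met the count minimum only through 51B/+ replicate 3, was nearest, at an edgeR adjusted p of 0.288 against w and 0.112 against V966M/+.

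The same library held the most counts of male germline markers. Their summed level over 17 genes was 6.87 and 22.5 CPM in 51B/+, against 6.81 to 9.53 CPM in the other 8 libraries. All 17 had at least 1 count in 51B/+ replicate 3, where 6 to 12 of 17 did in the other 9 libraries, and the testis transcripts Mst84Db and Mst84Dc, with 118 and 101 counts there, had 0 in 8 libraries and 3 and 5 in V966M replicate 3. The summed level of the other libraries came mostly from mia, topi, twe and fzo, which had counts in all 10. Summed female germline markers (8 genes) were at 2.84 and 2.94 CPM in 51B/+, against 2.70 to 4.38 CPM elsewhere. One of the 17, nht, had 21 counts in this library, 2 in V966M/+ replicate 3 and 0 elsewhere. By their titles, with the allele name doubled, both 51B/+ libraries may be of null homozygotes. AGO2 stood at 2.84 CPM in replicate 4 and 3.85 CPM in replicate 3, and replicate 4 had 0 counts of nht. In null female larvae the paper reported raised nht and other spermatogenesis transcripts. It proposes that AGO2 represses these genes in somatic cells. Where the marker transcripts came from, and any link to the counts of the paralogs, was not tested. Without 51B/+ replicate 4, replicate 3 stands alone for the strain. The edgeR log2 fold change in 51B/+ against w was then 5.91 for RpL37-2 and 1.80 for RpS19b. RpL37-2 met the count minimum only through that library, and over fits leaving out each library in turn its value ran from 2.51 to 7.20.

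**Figure D5:**
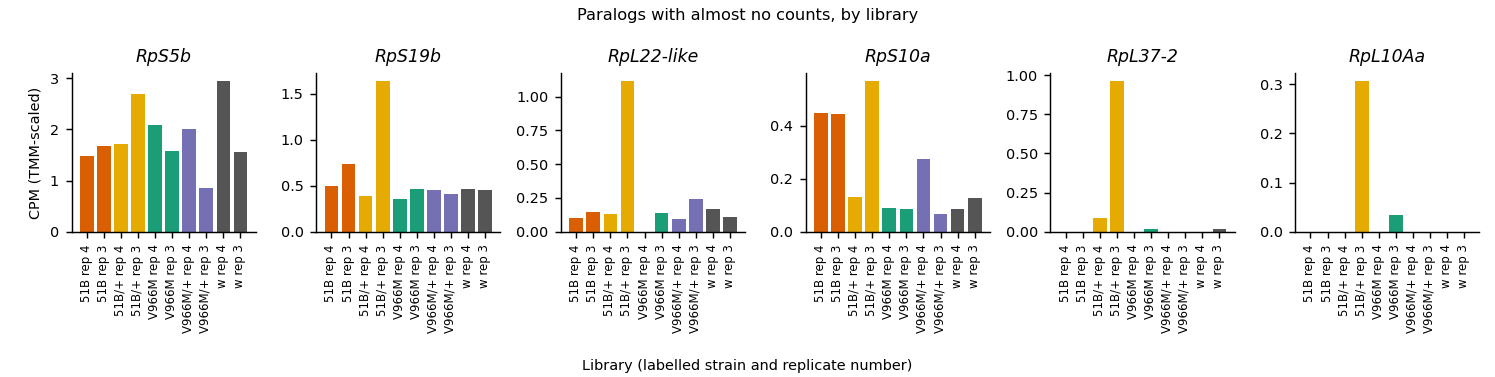
TMM-scaled CPM of the 6 ribosomal protein paralogs near 0 in each library, 1 panel per gene, each with its own axis from 0. Labelled 51B/+ replicate 3 is the highest bar for all but RpS5b, which is highest in w replicate 4.

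Other genes of translation and ribosome production were read from lists. Of 70 mitochondrial ribosomal protein genes tested, edgeR called 4 higher in V966M than in V966M/+, about the 5.67% of all genes called in that direction (median of the list 0.59, all genes -0.02), and 0 in each of the other 7 strain comparisons. They were mRpL42 (1.01, SE 0.25), mRpS24 (0.996, SE 0.24), mRpS21 (0.87, SE 0.22) and mRpL45 (0.73, SE 0.20), with edgeR adjusted p of 0.0690, 0.0625, 0.0768 and 0.0869. mRpL42 had 45.1 and 27.9 CPM in V966M, against 18.6 and 17.7 CPM in V966M/+. The median of the mitochondrial list was also apart from 0 in V966M/+ against w (-0.30) and in 51B/+ against V966M/+ (0.37), on the same side as the cytoplasmic genes.

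The 5 elongation factors tested and the 27 initiation factors had no call between strains by edgeR, with medians of 0.28 and 0.15 in V966M against V966M/+ and of -0.16 and -0.14 in V966M/+ against w. The 27 genes of ribosome biogenesis, the 6 of RNA polymerase I and the 13 regulators of ribosomal protein genes had no call between strains either, and their medians in V966M against V966M/+ were -0.02, -0.05 and -0.05, near that of all genes. Among the 6 genes of the response to loss of ribosomal proteins, edgeR called Gclc, the catalytic subunit of glutathione synthesis, lower in 51B than in w (-1.15, SE 0.21, edgeR adjusted p = 0.0722). Of all genes tested 0.738% were called there. Gclc had 39.7 and 44.4 CPM in 51B, against 88.7 and 98.5 CPM in w. It was below both w libraries in the other strains too, with 57.6 and 41.4 CPM in 51B/+, 78.4 and 75.7 CPM in V966M, and 47.5 and 64.1 CPM in V966M/+. Between replicate numbers, where 4.83% of all genes were called lower and 4.90% higher in replicate 4, 3 of the 13 regulators were lower, namely Trf2 (-0.74, SE 0.13), a core promoter factor of these genes, Myc (-0.60, SE 0.12) and S6k (-0.48, SE 0.11), with edgeR adjusted p of 0.0294, 0.0411 and 0.0581. M1BP (0.33, SE 0.09), which binds many of their promoters, and raptor (0.40, SE 0.11) were higher, with edgeR adjusted p of 0.0767 and 0.0814. In the same comparison edgeR called 5 of 70 mitochondrial ribosomal protein genes higher and 1 lower, 3 of 27 initiation factors higher and 5 lower, 2 of 27 biogenesis genes higher and 0 lower, and 2 of 6 RNA polymerase I genes lower and 0 higher, while 0 elongation factors were called.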

How the data were processed

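The authors trimmed 50-base single-end reads with cutadapt 1.10, aligned them to dm6 with HISAT2 2.0.4 and counted them over exons of FlyBase genes with featureCounts 1.5.0-p3, without regard to strand. The deposited values are these raw counts per gene and library. Symbols, coordinates and exon lengths came from Ensembl release 115 (17210 of 17402 identifiers matched). Genes with at least 10 counts over the 10 libraries were tested by edgeR 4.0.16 under R 4.3.3 (TMM factors, robust glmQLFit, glmQLFTest). All libraries entered 1 fit on strain, p-values were Benjamini-Hochberg adjusted, and each SE was derived from its F statistic. TPM left out the mitochondrial genome. The test was checked on simulated data. Members, lists, tests and the rule for named genes (genes called, paralogs, extremes of level and variation, RpL32, sta and sop) were chosen with earlier results of these data known. Groups followed the strain labels. Other settings tried were the edgeR exact test, DESeq2 1.42.0, RLE or no normalization factors, TMM without mitochondrial or without ribosomal protein genes, filterByExpr, no filter, stricter thresholds, a fit of 2 strains, the replicate number as a block, and leaving out each library. No sequence is shown, and the motif and protein comparisons first planned were not run. Of the 85 genes, 1 is not reported here by name and is left out of the plots that name genes, but it is kept in all counts.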

Additional observations from a re-analysis of the deposited data

How the results depend on the processing

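Between strains, the count of ribosomal protein genes called was 0 in each comparison, and most alternatives also gave 0. The exact test called 1 gene in 51B against w, 1 in 51B against V966M and 1 in 51B/+ against V966M/+. In the last of these, no count filter gave 1 and library totals with no TMM gave 1 (RpL37-2 each; without TMM tried after the data were seen), DESeq2 gave 10, and DESeq2 gave 5 in V966M against V966M/+. The cause was not tested. With library totals and no TMM, the median log2 fold change was 0.13 in 51B/+ against V966M/+ and 0.015 in V966M against V966M/+, because the median of all genes moved by about as much. Between replicate numbers, DESeq2 called 39, where it called 9.02% of all genes higher and 7.78% lower. A threshold of 0.05 left 11 and a log2 fold change of at least 1 left 2. The share of all genes at these stricter settings is not given, so these counts cannot be read as particular to the ribosomal protein genes. Of counts outside the mitochondrial genome, the genes took 9.02% in 51B and 10.1% in 51B/+. The median ratio of TPM percentiles was 4.69 without the 6 paralogs near 0.

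The replicate numbers were not taken as pairing, since no label says what they mark, a comparison of 2 strains holds 2 pairs, and the correlation of same-numbered libraries was not above 0.1 throughout. Deviations of libraries with the same number correlated with r from 0.02 to 0.67 across 8224 genes. With the replicate block, edgeR called 1 gene in 51B/+ against w, 5 in 51B/+ against V966M/+ (RpS2, RpS20, RpS24, RpL34a and RpL37-2) and 1 in V966M against V966M/+ (RpL34a), all higher in the strain named first, where it called 1.78%, 8.08% and 9.62% of all genes higher. RpL34a then had adjusted p of 0.0634 and 0.0747 in the last 2 comparisons. The block changed no other call.

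Leaving out each library in turn left 0 to 26 calls between replicate numbers, where 0 remained without w replicate 4. Between strains, leaving out a library of either strain leaves 1 in that arm, so only effect sizes are given. In an arm with 1 library, that library was assumed to vary like the others. The median log2 fold change ran from -0.27 to 0.32 in 51B against w, from -0.20 to 0.41 in 51B/+ against w, from -0.23 to 0.33 in V966M against w and from -0.27 to 0.20 in 51B against V966M. These signs depended on which w or V966M library was kept. It ran from -0.62 to -0.038 in V966M/+ against w, with the highest value without w replicate 4, where RpL32 turned to 0.30 (lowest value -0.80). It kept its sign in 51B/+ against V966M/+ (0.29 to 0.56) and in V966M against V966M/+ (0.15 to 0.57). Depth limits the 6 paralogs near 0, which had 0 to 123 counts a library.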
